A study of Mus musculus with 6 samples.

Results

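A set of 10 genes of fatty acid uptake, storage and release, chosen by name with earlier results of these data known, was described in mouse pancreatic islets. Lpl and Cd36 act in bringing fatty acids into cells, and Angptl4 inhibits lipoprotein lipase, the product of Lpl. Fabp4 and Fabp5 carry fatty acids in the cytosol, and Plin1, Plin2 and Plin3 coat lipid droplets. Pnpla2 acts in the release of fat from droplets, and Pparg responds to fatty acids in the nucleus. All 10 were linked to 1 locus each among the 39470 loci counted. Islet RNA was taken from C57BL/6 mice aged 14 weeks that had been fed for 8 weeks with high fat food (3 libraries) or normal food (3 libraries). Ribosomal RNA was depleted and no poly(A) selection was made. The libraries held 104657337 to 135353777 counted reads. Nothing in the labels ties a library to its own animal or pool of animals. The p-values therefore reflect only how far these libraries vary, some of which may be technical. The high fat columns of the count table carry an abbreviation (HDR) whose meaning no source used here gives, so the direction of every difference rests on reading HDR as the high fat diet.

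Long-chain fatty acids reach cells on albumin or inside lipoproteins. Lipoprotein lipase frees them from lipoproteins at the capillary wall, CD36 helps them across the plasma membrane, and small binding proteins carry them through the cytosol. Surplus fatty acid is stored as triglyceride in droplets coated by perilipins, and adipose triglyceride lipase (encoded by Pnpla2) begins its release. Fatty acids also bind the PPAR nuclear receptors, which switch on many of these same genes. In islets, fatty acids acutely increase insulin secretion, while a lasting excess is known to impair beta cells.

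Both Cd36 and Plin2 are textbook PPAR targets. RefSeq promoters of 250 bases before the start site are printed for this pair, the only 2 of the 6 members with a promoter entry that held a near match to the PPAR response element. That element is a direct repeat of the half-site AGGTCA with 1 base between (AGGTCANAGGTCA), and was searched on both strands, allowing up to 2 mismatches. Capitals mark the closest direct repeat and any exact half-site, which can overlap it. The Cd36 promoter is at chr5:17835897-17836146 and the Plin2 promoter at chr4:86670060-86670309, both on the minus strand of GRCm38.p6 and printed 5′ to 3′ along the gene. Each is the only entry of its gene, while the loci of Cd36 and Plin2 have 6 and 3 start positions. Starts without an entry were not searched.
Cd36: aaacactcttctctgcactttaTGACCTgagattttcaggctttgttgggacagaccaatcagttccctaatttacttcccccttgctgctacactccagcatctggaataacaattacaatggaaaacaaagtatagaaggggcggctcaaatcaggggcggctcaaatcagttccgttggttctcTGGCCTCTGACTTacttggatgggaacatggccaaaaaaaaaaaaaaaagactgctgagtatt
Plin2: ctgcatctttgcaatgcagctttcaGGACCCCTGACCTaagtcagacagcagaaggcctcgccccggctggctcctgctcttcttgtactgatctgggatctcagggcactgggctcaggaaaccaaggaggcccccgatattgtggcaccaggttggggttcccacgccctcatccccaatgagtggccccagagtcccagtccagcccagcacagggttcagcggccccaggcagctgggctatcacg
In Cd36 the repeat TGGCCTCTGACTT began 63 bases before the start, and an exact half-site began 228 bases before it. In Plin2 the repeat GGACCCCTGACCT began 225 bases before the start and its end is the exact half-site. Over all 32851 RefSeq promoters of 300 bases, 3.86% held a repeat this close and 16.26% an exact half-site. Of the other members with a promoter in that table, Plin1, Plin3 and Pnpla2 held neither, and Pparg held an exact half-site at 2 of its 3 starts. The promoters of Fabp4, Fabp5, Lpl and Angptl4 were not analysed here. A match describes letters only, and binding was not measured here.

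Fabp4 and Fabp5 are paralogs, so the stretch of the length of 1 read in which their coding sequences are most alike is shown, with capitals at the differing bases. Both genes are on chromosome 3, and the stretch covers coding bases 263 to 362 of 399 in Fabp4 and 269 to 368 of 408 in Fabp5.
Fabp4: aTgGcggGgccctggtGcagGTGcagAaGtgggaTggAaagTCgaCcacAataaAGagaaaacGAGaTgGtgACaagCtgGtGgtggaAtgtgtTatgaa
Fabp5: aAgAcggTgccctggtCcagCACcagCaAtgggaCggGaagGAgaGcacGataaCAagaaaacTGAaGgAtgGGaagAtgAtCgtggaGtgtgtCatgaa
Even there the pair differed at 29 of 100 bases, and the longest run shared anywhere in their coding sequences was 12 bases. No 100-base window of Fabp4 transcripts occurred in a transcript of another gene. For Fabp5 2.19% of windows did, all in Gm14328 and Gm6166. For Lpl 0.347% and for Plin2 0.115% did, and for the other members none.

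High fat islets held more Cd36 and Fabp4 RNA and less Lpl RNA than normal diet islets. These were the 3 of 9 tested members past the threshold (an adjusted p of 0.05 by edgeR's quasi-likelihood test over all 23983 loci tested), 2 higher and 1 lower. The same test called 10.8% of all loci, 5.95% higher and 4.86% lower. Fabp5, Plin2, Pparg and Angptl4 had higher means in high fat islets without passing, and Plin3 and Pnpla2 had nearly equal means. Plin1 was listed at 0 in every library and did not enter the test. The median log2 fold change of the 9 members was 0.38, against -0.05 over all loci tested. Levels below are TMM-normalised CPM (reads per 1000000 counted), and fold changes are high fat over normal.

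**Figure D1:**
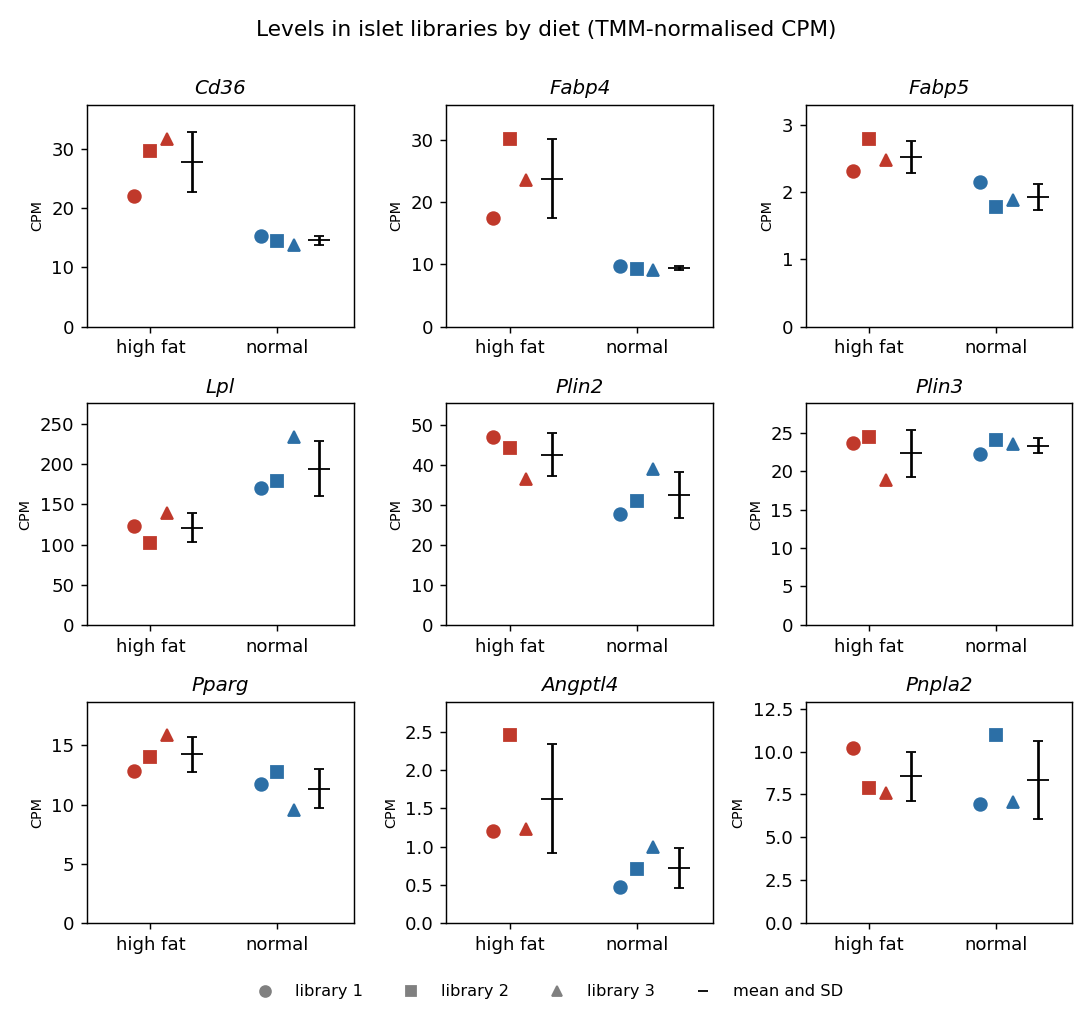
Level of each of the 9 detected genes in TMM-normalised CPM (vertical axes, from 0) in 3 high fat libraries (red) and 3 normal diet libraries (blue), with marker shape for the library number and black bars for mean and SD. The diets do not overlap for Cd36, Fabp4, Fabp5, Lpl, Pparg and Angptl4, with Lpl the gene that was lower in high fat islets.

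The level plot shows that 6 of the 9 tested members had no overlap between the diets, 5 higher and 1 lower in high fat islets. Without regard to any test, 39.2% of all loci tested had no overlap, 18.8% higher and 20.4% lower.

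Lpl encodes lipoprotein lipase, which frees fatty acids from circulating triglyceride. In mm9, the build of all locus coordinates here, the locus covers chromosome 8, 71404454 to 71431347, plus strand. High fat libraries 1, 2 and 3 held 123, 102 and 139 CPM, and normal diet libraries 1, 2 and 3 held 171, 179 and 234 CPM. Every high fat library was below every normal diet library. The means were 121 ± 18 CPM in high fat islets and 194 ± 34 CPM in normal diet islets (SD, n = 3 each). Lpl fell by 0.68 on the log2 scale (SE 0.15, edgeR adjusted p = 0.031), a ratio of 0.624 with a 95% interval of 0.495 to 0.786. The fall ranged from -0.79 to -0.55 when single libraries were left out, and it passed only without high fat library 3 (adjusted p = 0.0061). In the other 5 of these fits its adjusted p was 0.072 to 0.099. Those without a normal diet library called no locus at all.

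Angptl4 encodes a secreted inhibitor of lipoprotein lipase and is a classical PPAR target. The locus covers chromosome 17, 33911845 to 33918520, minus strand. Angptl4 had 1.20, 2.45 and 1.23 CPM in high fat libraries 1, 2 and 3, and 0.472, 0.711 and 0.989 CPM in normal diet libraries 1, 2 and 3. High fat library 2 was far above the other high fat libraries, and the lowest high fat library was just above the highest normal diet library. These levels rest on 136, 237 and 159 reads in high fat libraries and 59, 78 and 141 reads in normal diet libraries. The log2 fold change was 1.16 (SE 0.35, 95% interval 0.36 to 1.96), and the edgeR adjusted p of 0.065 missed the threshold. DESeq2 called it (adjusted p = 0.0056), where it called 19.6% of the loci with an adjusted p, and so did edgeR without high fat library 3 (adjusted p = 0.026), where 20.2% of loci were called. Without high fat library 2 its log2 fold change was 0.75.

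Cd36 encodes the membrane protein that takes up long-chain fatty acids and oxidised lipoproteins. Its locus spans 107270 bases of chromosome 5, from 17287508 to 17394777 on the minus strand, with 10 transcript models from 6 start positions. High fat libraries 1, 2 and 3 held 22.03, 29.7 and 31.7 CPM, and normal diet libraries 1, 2 and 3 held 15.4, 14.5 and 13.8 CPM. The normal diet libraries were close together and the lowest high fat library was well above all of them. The means were 27.8 ± 5.1 CPM in high fat islets and 14.6 ± 0.77 CPM in normal diet islets (SD, n = 3 each). Cd36 rose 1.91-fold by edgeR (adjusted p = 0.019; 0.93 on the log2 scale, SE 0.14), with a 95% interval of 1.53-fold to 2.39-fold. Its log2 fold change was 0.84 to 1.08 with single libraries left out. The call was lost without high fat library 2 (adjusted p = 0.062) and without normal diet library 1, 2 or 3 (adjusted p = 0.095, 0.078 and 0.083). The fits without a normal diet library called no locus at all.

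Fabp4 encodes a cytosolic fatty acid-binding protein best known from adipocytes, macrophages and capillary endothelium. The locus covers chromosome 3, 10204343 to 10208576, minus strand, and has 1 transcript model of 641 bases. High fat libraries 1, 2 and 3 held 17.5, 30.1 and 23.6 CPM, and normal diet libraries 1, 2 and 3 held 9.80, 9.33 and 9.14 CPM. The high fat libraries spread widely, but each was above every normal diet library. The means were 23.7 ± 6.3 CPM in high fat islets and 9.42 ± 0.34 CPM in normal diet islets (SD, n = 3 each). Fabp4 had the highest fold change of the 9 tested members, at 2.52-fold (log2 fold change 1.33, SE 0.18, edgeR adjusted p = 0.015, 95% interval 1.89-fold to 3.36-fold). It remained past the threshold without each high fat library in turn, at adjusted p-values of 0.027, 0.043 and 0.0026 without libraries 1, 2 and 3. Without normal diet library 1, 2 or 3 its call was lost, at 1.34, 1.30 and 1.29 on the log2 scale (adjusted p = 0.095, 0.078 and 0.083). Those fits called no locus at all (0 in each, with 5500, 6286 and 6294 loci at an unadjusted p under 0.05).

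Fabp5 encodes the related epidermal-type binding protein, which is made in many tissues. It lies on the same chromosome as Fabp4, from 10012586 to 10016610 on the plus strand. Fabp5 had 2.31, 2.79 and 2.47 CPM in high fat libraries 1, 2 and 3, and 2.15, 1.77 and 1.88 CPM in normal diet libraries 1, 2 and 3. The diets did not overlap, though high fat library 1 and normal diet library 1 were close. Its log2 fold change was 0.38 (SE 0.16, 95% interval 0.03 to 0.74, edgeR adjusted p = 0.13), and it did not pass in any of 13 alternative fits.

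**Figure D2:**
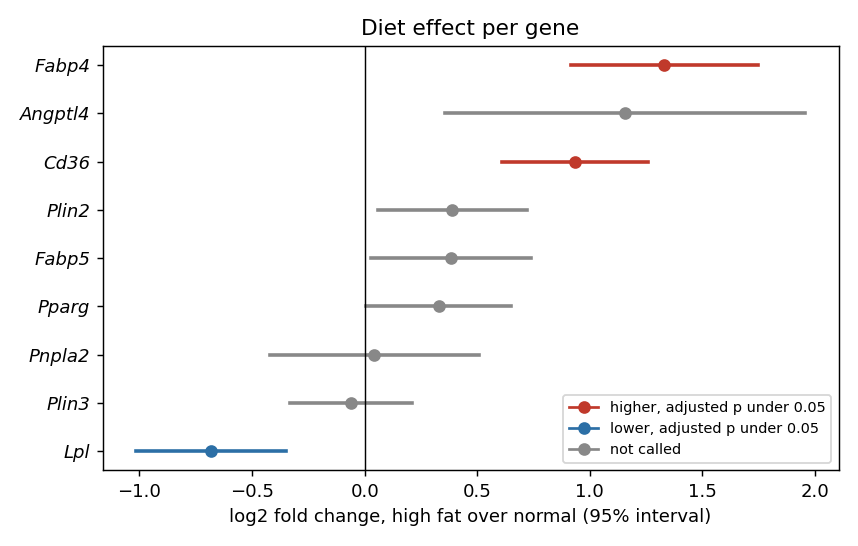
Log2 fold change of each tested gene, high fat over normal (horizontal axis), with points for the edgeR estimate and lines for its 95% interval; red and blue mark adjusted p-values under 0.05. Fabp4 (1.33) and Cd36 (0.93) lie to the right, Lpl (-0.68) to the left, and the interval of Angptl4 is the widest.

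Among the droplet coats, Plin2 is the general perilipin of tissues other than fat, and its protein is known to be stable only on droplets. The locus covers chromosome 4, 86302469 to 86315963, minus strand. High fat libraries 1, 2 and 3 held 46.9, 44.1 and 36.5 CPM, and normal diet libraries 1, 2 and 3 held 27.6, 30.8 and 38.9 CPM. High fat library 3 was below normal diet library 3, so the diets overlapped. The log2 fold change of Plin2 was 0.39 (SE 0.15, 95% interval 0.06 to 0.72, edgeR adjusted p = 0.11). Plin2 passed once high fat library 3 was left out, at 0.49 (adjusted p = 0.026).

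Plin3 encodes a perilipin that moves between the cytosol and new droplets. The locus covers chromosome 17, 56408885 to 56430745, minus strand. Plin3 had 23.7, 24.4 and 18.85 CPM in high fat libraries 1, 2 and 3, and 22.2, 24.1 and 23.6 CPM in normal diet libraries 1, 2 and 3. Apart from high fat library 3 the values lay between 22.2 and 24.4 CPM, and the diets overlapped. The log2 fold change was -0.06 (95% interval -0.33 to 0.21, edgeR adjusted p = 0.76), and 0.05 without high fat library 3.

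Plin1 encodes the perilipin of adipocyte droplets. Its locus, on chromosome 7 from 86866050 to 86877662 on the minus strand, was listed at 0 reads in each library of either diet. A count of 0 allows up to 3 reads, or 0.021 to 0.031 CPM per library. Of its 7 transcript models 2 carry identifiers of the assembler and not of a known gene, although no read was counted there. Of 7987 named loci with such spliced models and no exonic base shared with another locus, 42 were at 0 in all libraries. Whether reads of Plin1 were lost in counting was not tested.

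Pnpla2 encodes adipose triglyceride lipase, the enzyme that starts the breakdown of stored triglyceride. The locus covers chromosome 7, 148641087 to 148646642, plus strand. Pnpla2 had 10.2, 7.89 and 7.60 CPM in high fat libraries 1, 2 and 3, and 6.97, 10.9 and 7.05 CPM in normal diet libraries 1, 2 and 3. A single library in each diet was high and the diets overlapped. The log2 fold change was 0.04 (SE 0.20, edgeR adjusted p = 0.91), and its 95% interval, a ratio of 0.747 to 1.42, includes changes of either sign.

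Pparg encodes PPAR gamma, the nuclear receptor that drives fat storage in adipocytes and is present at lower levels in other cells. Its locus spans 129338 bases of chromosome 6, from 115311082 to 115440419 on the plus strand, with 7 models from 6 starts. Pparg had 12.9, 14.0 and 15.8 CPM in high fat libraries 1, 2 and 3, and 11.7, 12.8 and 9.58 CPM in normal diet libraries 1, 2 and 3. The diets did not overlap, but high fat library 1 and normal diet library 2 nearly touched. The log2 fold change was 0.33 (SE 0.14, 95% interval 0.01 to 0.65, edgeR adjusted p = 0.15), and no alternative fit passed it.

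On the second principal component of all loci tested, high fat library 3 lay at -59.4, and high fat libraries 1 and 2 at 32.3 and 25.5. It held the highest high fat level of Cd36, Lpl and Pparg and the lowest of Plin2, Plin3 and Pnpla2. Without that library 5 members passed, Cd36, Fabp4, Angptl4 and Plin2 higher and Lpl lower, where 20.2% of all loci were called (12.4% higher and 7.87% lower). With limma and voom the same 3 members passed as with edgeR, where 10.2% of loci were called, and in a fit blocked on the library number 0 members did, where 0.309% were.

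Levels were compared between genes per kb of merged exons. In high fat islets Fabp4 was the most abundant, at 37.0 ± 9.9 CPM per kb, followed by Plin2 at 21.3 ± 2.7 and Lpl at 12.1 ± 1.8 CPM per kb (SD, n = 3). In normal diet islets Lpl, Plin2 and Fabp4 stood at 19.4 ± 3.4, 16.3 ± 2.9 and 14.7 ± 0.54 CPM per kb, and neighbours among them did not differ beyond their SDs. The other genes were well below these. In high fat islets Cd36 (7.05 ± 1.3 CPM per kb) and Pparg (5.91 ± 0.62) overlapped within 1 SD, as did Plin3 (3.07 ± 0.42) and Pnpla2 (3.00 ± 0.50). In normal diet islets the order was Pparg (4.71 ± 0.67 CPM per kb), Cd36 (3.69 ± 0.20), Plin3 (3.20 ± 0.13) and Pnpla2 (2.92 ± 0.80), with overlap of the last pair. Fabp5 had 2.22 ± 0.21 CPM per kb in high fat and 1.70 ± 0.17 in normal diet islets, and Angptl4 was lowest in both, at 0.855 ± 0.38 and 0.381 ± 0.14 CPM per kb. These orders depend on the length used. Per kb of the longest matched transcript, Lpl had 29.9 CPM per kb in high fat and 48.0 in normal diet islets, and Plin3 had 10.4 and 10.8, above Pparg at 7.67 and 6.11. The merged exons of Lpl come to 10004 bases and include a single-exon model of 3946 bases.

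**Figure D3:**
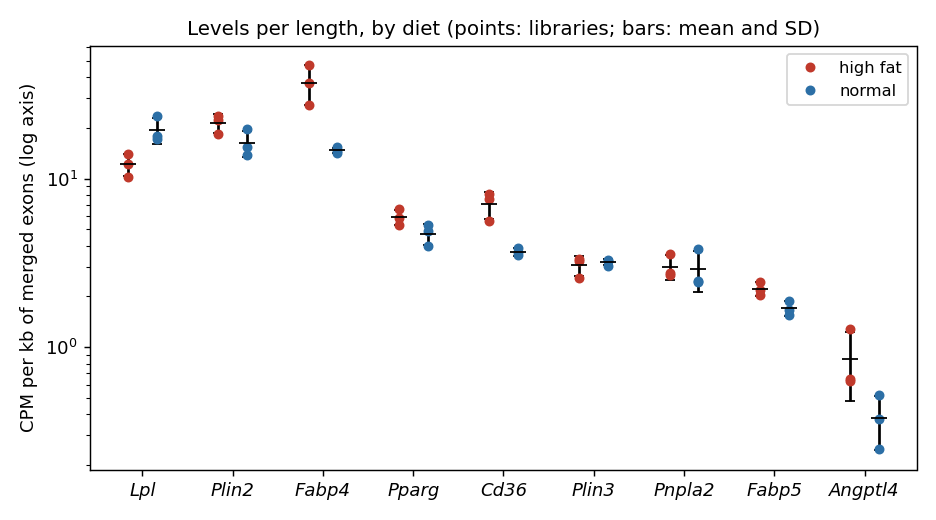
Level of each detected gene in CPM per kb of merged exons (vertical log axis), with points for libraries (high fat in red, left; normal in blue, right) and bars for mean and SD, in the order of normal diet means. Fabp4, at 37.0 CPM per kb, leads in high fat islets, and Lpl, at 19.4 CPM per kb, in normal diet islets.

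Other genes of the same pathways were taken from 4 lists. These lists were chosen with earlier results of these data known, so their counts beside the shares of all loci are descriptive only. Over all loci tested edgeR called 5.95% higher and 4.86% lower. In the list of uptake, lipoprotein release, binding and activation 1 of 19 tested genes rose and none (0) fell, with a median log2 fold change of 0.07. The gene that rose was Acsl4, an acyl-CoA synthetase that prefers arachidonic acid, at 106 ± 9.5 CPM in high fat and 81.8 ± 0.92 CPM in normal diet islets (edgeR adjusted p = 0.034; 0.38 on the log2 scale, SE 0.086). Acsl5, the most abundant of the list per kb, had 95.1 ± 6.1 CPM in high fat and 82.2 ± 3.6 CPM in normal diet islets (adjusted p = 0.12). Gpihbp1, which anchors lipoprotein lipase to capillaries, had 8.07 ± 1.5 CPM in high fat and 6.42 ± 0.16 CPM in normal diet islets (edgeR adjusted p = 0.18). Of the 19 genes 10 had log2 fold changes above 0 and 9 below. Among the latter Ffar4 was lower without overlap, at -0.48 (edgeR adjusted p = 0.054). Without high fat library 3, 5 genes of the list passed as higher and 3 as lower, where 12.4% and 7.87% of all loci did.

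In the lipid droplet list 4 of 19 tested genes rose and none (0) fell, with a median of 0.05. Of all loci 5.95% rose and 4.86% fell by the same test. Ldah, a droplet-associated hydrolase, had a log2 fold change of 0.38 (edgeR adjusted p = 0.036). Hilpda, a droplet protein that inhibits adipose triglyceride lipase, had 11.01 ± 0.98 CPM in high fat and 7.90 ± 0.63 CPM in normal diet islets (0.48, adjusted p = 0.045). Abhd5, which activates the same lipase, had 33.8 ± 0.47 CPM in high fat and 26.8 ± 1.6 CPM in normal diet islets (0.33, adjusted p = 0.047), and another locus overlaps 25.0% of its exons. Hsd17b11, a dehydrogenase of droplets, had 0.41 (adjusted p = 0.049). Rab18 and Tmem159, the most abundant of the list per kb, had 0.39 and 0.37 and did not pass (adjusted p = 0.0504 and 0.061). In this list 11 genes had log2 fold changes above 0 and 8 below. Plin4 was lower without overlap, at -0.98, and did not pass (edgeR adjusted p = 0.060). Without high fat library 3, 7 genes of the list passed as higher and 1 as lower, where 12.4% and 7.87% of all loci did.

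Of 13 tested genes for PPARs, their RXR partners and cofactors 1 rose and 1 fell, with a median of -0.12. The shares over all loci were 5.95% higher and 4.86% lower. Ppargc1a, a coactivator of PPARs and of mitochondrial genes, had 9.16 ± 1.7 CPM in high fat and 4.17 ± 0.73 CPM in normal diet islets (log2 fold change 1.14, SE 0.19, edgeR adjusted p = 0.0197). The abundant Ncor1 and Rxrb had -0.06 and -0.09 (adjusted p = 0.64 and 0.78), and the receptors Ppara and Ppard had -0.16 and -0.24 (adjusted p = 0.47 and 0.59). Log2 fold changes were above 0 for 2 of the 13 genes and below 0 for 11. Rxrg was lower without overlap, at -1.18, and did not pass (edgeR adjusted p = 0.052). Without high fat library 3, 1 gene was higher and 3 were lower, where 12.4% and 7.87% of all loci were.

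Beside the 5.95% of all loci that rose and the 4.86% that fell, a last list was set. Of 21 tested textbook PPAR targets of fat oxidation 6 rose and none (0) fell, with a median of 0.23. These were Cpt1a, Slc25a20, Acaa2, Etfdh, Acadl and Hadha, at log2 fold changes of 1.02, 0.79, 0.62, 0.45, 0.40 and 0.27 (edgeR adjusted p = 0.0092 to 0.046), which act in the entry of fatty acids into mitochondria and their oxidation there. Pdk4, another PPAR target, had 21.5, 26.2 and 19.7 CPM in high fat libraries 1, 2 and 3 and 17.6, 25.9 and 17.8 CPM in normal diet libraries 1, 2 and 3, so its diets overlapped. Among the 21 genes 17 had log2 fold changes above 0 and 4 below. Cpt1b was lower without overlap, at -0.68, and did not pass (edgeR adjusted p = 0.055). Without high fat library 3, 8 genes of the list passed as higher and none (0) as lower, where 12.4% and 7.87% of all did.

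**Figure D4:**
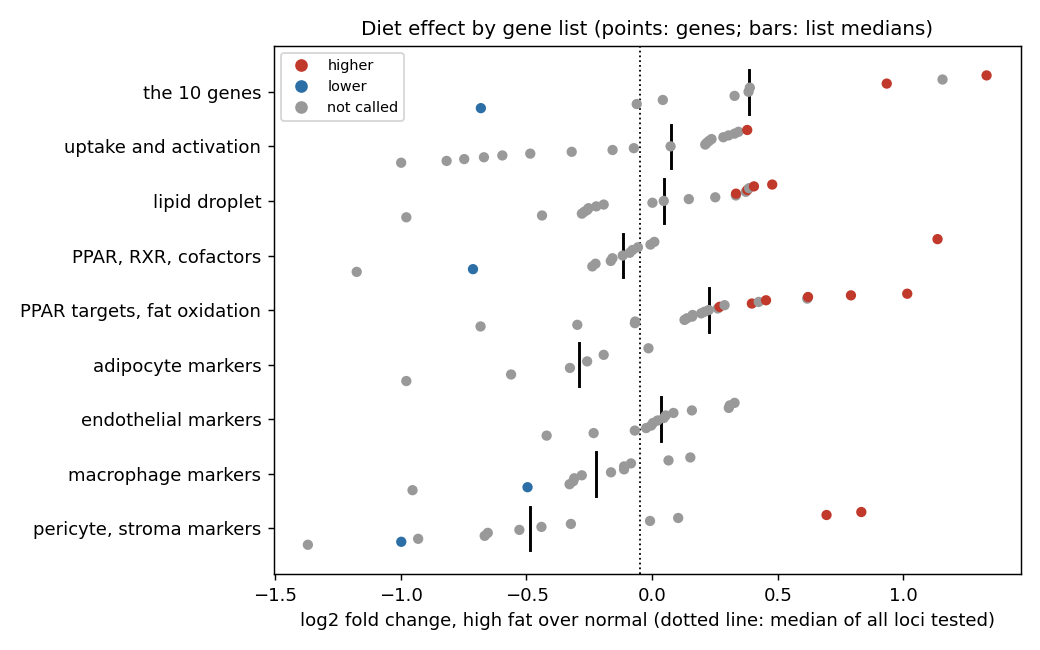
Log2 fold change, high fat over normal (horizontal axis), of each tested gene (points) by list, with black bars for list medians, red and blue for genes past the test and a dotted line for the median of all loci tested (-0.05). The 10 genes (9 tested) have a median of 0.38, endothelial markers 0.03 and macrophage markers -0.22.

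Cd36, Fabp4, Lpl, Plin1 and Pparg are also made by adipocytes, capillary endothelium or macrophages, and in whole islets fewer cells of a type and less RNA per cell cannot be told apart. Beta-cell markers summed to 86160 to 105300 CPM in high fat and 59980 to 70290 CPM in normal diet islets over 9 genes, among which Iapp led. Iapp, itself called higher, averaged 58830 CPM in high fat and 35730 CPM in normal diet islets. G6pc2 was also called higher, and Ins1, Ins2, Slc30a8, Ucn3 and Glp1r overlapped between the diets. Other loci cover 61.6% of the exons of Ins1 and 18.4% of those of Ins2. Of the 9 genes, Slc2a2 and Nkx6-1 were listed at 0, and other loci cover 100% and 99.5% of their exons. Defining adipocyte genes were at or near 0, with 6 reads of Adipoq, 5 of Retn and 0 of Lep over all 6 libraries. The 11 adipocyte markers summed to 30.7 to 39.1 CPM in high fat and 32.5 to 37.1 CPM in normal diet islets, mostly Acvr1c, which islet cells also make, and 0 of the 6 tested, all with log2 fold changes below 0, passed by edgeR (1 at an unadjusted p under 0.05, and 1 by DESeq2). The 14 endothelial markers summed to 557 to 687 CPM in high fat and 555 to 636 CPM in normal diet islets, and 0 of 14 passed by edgeR or by DESeq2 (1 at an unadjusted p under 0.05). Of all 23983 loci tested, 7623 were at an unadjusted p under 0.05 by edgeR. DESeq2 called 19.6% of the loci with an adjusted p. Kdr and Flt1, the highest of the list in CPM not corrected for length, both stood at 0.05 on the log2 scale (edgeR adjusted p = 0.83 for each). Of the 14 genes 9 had log2 fold changes above 0 and 5 below, with a median of 0.03. The highest were Gpihbp1 (0.33), Emcn (0.31) and Tek (0.31), and the lowest were Egfl7 (-0.42) and Robo4 (-0.23). Other loci cover 68.4% of the exons of Egfl7, and the SE of its log2 fold change was 0.50. Without high fat library 3, 1 endothelial marker passed as higher and 0 as lower, where 12.4% and 7.87% of all loci did.

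The 13 macrophage markers summed to 115 to 170 CPM in high fat and 177 to 186 CPM in normal diet islets, without overlap. Cd68 was listed at 0, and other loci cover 100% of its exons and 79.5% of those of C1qb. Of 12 tested none (0) rose and 1 fell. That was Csf1r, the receptor that keeps macrophages alive, at -0.50 (edgeR adjusted p = 0.046), and other loci overlap 18.8% of its exons, while C1qa, the most abundant, stood at -0.31 (adjusted p = 0.37). Lpl moved the same way as this list, which had a median of -0.22. Medians of adipocyte, pericyte and stromal, alpha-cell and Schwann cell markers were further below 0, at -0.29, -0.48, -0.58 and -0.80. Duct markers had a median of -0.01, and endothelial, beta-cell and acinar markers 0.03, 0.23 and 0.59. The part of macrophages or other cells in the fall of Lpl was not tested. Among high fat libraries Lpl was highest in library 3, where the macrophage sum was lowest. C1qa, the largest part of the sum, had 108, 116 and 56.1 CPM in high fat libraries 1, 2 and 3. Of the markers, C1qa, C1qc, Itgam and Gpnmb were lowest in library 3, while Csf1r, Adgre1, Mrc1, Cx3cr1, Fcgr1 and Mertk were highest there. Of 12 pericyte and stromal markers 3 had log2 fold changes above 0 and 9 below, with a median of -0.48. Among them Rgs5 and Acta2 rose by 0.69 and 0.83 and Thy1 fell by 1.00 on the log2 scale (edgeR adjusted p = 0.014, 0.027 and 0.042). The list summed to 458 to 598 CPM in high fat and 383 to 485 CPM in normal diet islets, most of it Rgs5, which averaged 379.9 CPM in high fat and 235 CPM in normal diet islets.

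The 18 acinar markers, from the enzyme-making cells around islets, summed to 5016, 10780 and 8479 CPM in high fat libraries 1, 2 and 3 and to 3515, 6753 and 5930 CPM in normal diet libraries 1, 2 and 3, and 0 of 17 tested, all with log2 fold changes above 0 and a median of 0.59, passed by edgeR (4 at an unadjusted p under 0.05, and 4 by DESeq2). Among high fat libraries Fabp4 had the same order as this sum, with library 1 lowest and library 2 highest, and so did Fabp5 and Angptl4. Among normal diet libraries none of these 3 genes followed the order of the sum. With the acinar level as a covariate Fabp4, Cd36 and Lpl stood at 1.13, 0.83 and -0.69 on the log2 scale (adjusted p = 0.093, 0.10 and 0.13), in a fit that called 0 of all loci with 5044 at an unadjusted p under 0.05. Angptl4 then stood at 0.74. The part of acinar RNA in these differences was otherwise not tested. Of duct markers 0 of 7 tested passed by edgeR or DESeq2 (1 at an unadjusted p under 0.05), of Schwann cell markers 3 of 6 and of alpha-cell markers 2 of 4 fell, and of beta-cell markers 2 of 7 rose. These marker counts stand beside 5.95% of all loci called higher by edgeR and 4.86% called lower. Those at an unadjusted p under 0.05 stand beside 7623 of all 23983 loci tested, and those by DESeq2 beside 19.6%.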

How the data were processed

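RNA of 6 islet libraries was counted per assembled locus. The submitters' processing notes name HTSeq 0.5.4p3, TopHat2 2.0.8, edgeR and Cufflinks 2.1.1 beside the build mm9, with order, settings and use of strand not given in the sources used here. The authors deposited raw counts for 39470 loci and 98161 transcript models, whose exon coordinates (other values, with no unit but bases) are in mm9, per the submitters' processing notes. A further table of scaled values, the counts times 1 constant per library, was not used. Of 295 named loci with at least 99% of exonic bases in a locus on the opposite strand, 94.6% were at 0 in all libraries, against 6.59% of 15070 loci with none shared.

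Each gene was linked to the locus whose ordered exon and intron lengths matched a GENCODE M21 transcript on the same chromosome and strand, with no coordinates converted, which named 19727 loci. Each member had 1 locus and shared 0% of its exonic bases. Count columns were matched to diets by name, HDR being read as the high fat diet.

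Loci passing filterByExpr (23983) were tested in R 4.3.3 with edgeR 4.0.16 (TMM, quasi-likelihood test for diet, two-sided, Benjamini-Hochberg adjustment over all loci tested, threshold 0.05). SEs are log2 fold changes over the root of the F statistic, and 95% intervals use the test's degrees of freedom. Floors of 3 counts cover counting error only. The fit was checked on simulated counts. Alternatives used DESeq2 1.42.0, limma 3.58.1 (voom), other scalings, no filter, a replicate block, an acinar covariate and single libraries left out. Promoters are from RefSeq on GRCm38.p6 and transcripts from GENCODE M21. Named are all members, of each pathway list the genes past the threshold (up to 6) and the 2 most abundant per kb, and of marker lists the most abundant and those past the threshold. Gpihbp1, Ppara, Ppard, Pdk4, Ffar4, Plin4, Rxrg and Cpt1b were added after their values were seen. Some genes that this rule names are not reported here. The members and all lists were chosen with earlier results of these data known.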

Additional observations from a re-analysis of the deposited data

How the results depend on the processing

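Over all loci 2591 passed (1426 higher, 1165 lower). DESeq2 called 4129, upper quartile factors 1721, the replicate block 74 and the acinar covariate 0. Leaving out single libraries gave 0 to 5035, with 0 in each fit without a normal diet library, 128 and 86 without high fat libraries 1 and 2, and 5035 without high fat library 3. The balance of higher to lower was 562 to 1159 with upper quartile factors, 300 to 3039 with library totals and 1134 to 1209 with no filter. Library totals moved the median log2 fold change of all loci from -0.05 to -0.25. Relative to that median Cd36, Fabp4 and Lpl stood at 0.98, 1.38 and -0.63, as with TMM. Another scaling shifts all loci by nearly the same amount, so this distance is nearly fixed in advance and is no check. All 3 passed under every scaling tried. Of the members 3 passed, against 0 with the acinar covariate and with the replicate block and 0 to 5 with single libraries left out (1 without high fat library 2, 5 without high fat library 3). Cd36, Fabp4, Lpl, Fabp5, Plin2, Pparg and Angptl4 kept their direction in all 13 alternatives. Pnpla2 turned to -0.16 with library totals, to -0.022 with upper quartile factors, and ranged from -0.10 to 0.27 with single libraries left out, and Plin3 from -0.12 to 0.0535 (without high fat library 3). No pairing by replicate number was seen. Same-numbered libraries deviated from their diet means with correlations of -0.075, 0.075 and -0.014, and not every library correlated best with its own number. Deviations of 3 libraries from their own mean constrain each other, so these values cannot settle whether same-numbered libraries were handled together. In an analysis chosen after seeing the data, without high fat library 3, 8 uptake genes, 8 droplet genes and 4 PPAR and cofactor genes passed, against 1, 4 and 2 with all libraries. Of these 8, 8 and 4 genes 3, 1 and 3 were lower. Of the PPAR targets 8 passed, against 6, all higher in both fits. Of all loci 20.2% passed without high fat library 3, against 10.8% with all libraries. No member had more than 1 matching locus, so summing loci gave no value. Angptl4 and Fabp5, with 810 and 1581 reads in all, have the fewest reads of the tested members.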
